A study of Mus musculus with 2 samples.

Results

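Cartilage matrix genes and the transcription factors Sox5 and Sox6 were examined in ureters of mouse embryos with floxed Tbx2 and Tbx3, where 0 of the 9 genes that could be tested were called (limma, adjusted p under 0.05), beside 4.45% of all genes. The set holds 10 genes of 31861 gene names on the array: Sox5, Sox6, Acan, Comp, Chad, Matn1, Matn2, Matn3, Matn4 and Hapln1. They were chosen by name, as every non-control spot annotated with one of these symbols, and are read by 12 of 39429 probes, with 2 probes each for Sox5 and Matn4. The ureter drains the kidney into the bladder through a wall of smooth muscle. Total RNA came from dissected ureters of NMRI embryos at E18.5 and was hybridised to 2 two-colour arrays, each holding RNA labelled Tbx2/Tbx3cDKO and control RNA. The genotype labelled cDKO was Tbx18(cre/+) with Tbx2(fl/fl) and Tbx3(fl/fl). Its Cre is expressed from the Tbx18 locus, which is active in ureteric mesenchyme and not in the epithelium, and leaves 1 intact Tbx18 allele. Controls were Tbx18(+/+) with at least 1 floxed allele of Tbx2 and of Tbx3 and a second allele not given in the labels, so floxed alleles were present in both groups and Cre in one. The male array carried the cDKO RNA in red (AlexaFluor647), and the female array carried it in green (AlexaFluor555). Sex, dye orientation and replicate number cannot be told apart. The number of embryos behind an RNA is not given. The p-values measure only the spread between these 2 arrays, mostly as shared over all probes, and that spread may be technical.

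In cartilage, aggrecan (Acan) is the large proteoglycan that binds hyaluronan, and the link protein Hapln1 holds the pair together. Matrilins (Matn1 to Matn4) are adaptor proteins that form filaments between collagens and proteoglycans, Comp is an oligomeric thrombospondin that binds collagen, and chondroadherin (Chad) is a leucine-rich protein of the pericellular matrix. Sox5 and Sox6 are closely related HMG-box factors that cooperate with Sox9 to activate genes such as Col2a1 and Acan in chondrocytes. Ureters contain no cartilage, but Matn2 and Matn4 are known from loose connective tissue, and Sox9 from the ureteric mesenchyme.

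The probes themselves decide what can be read for some of these genes, so the ones that matter are shown in 5′ to 3′ direction, with coordinates on mm9 as the files give them. GGA triplets of the Sox5 probes are in capitals. The first 30 of 60 bases are given. The Sox5 pair shows how its probes differ, and the others are the probes of the undetected gene, of the highest ratios and of the widest disagreement.

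Sox5, A_55_P2156905: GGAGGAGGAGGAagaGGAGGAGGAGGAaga

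Sox5, A_51_P500318: ttacaagcaaaaacgtcatcaagaagaaga

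Comp, A_51_P409010: ctgcgctaccgttgcaatgatacaatccct

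Matn4, A_55_P2157581: tctccggactttagcaccatgacgcacctg

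Matn2, A_51_P484111: gggggaaggaatcctgaattctgagtttac

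Hapln1, A_66_P117730: aacttgacaaatacaccatgcattcttctg

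The first Sox5 probe is a purine repeat. It held 16 GGA triplets in its 60 bases, 100% of which were A or G, and the files place only 27 bases of the genome under it (chr6:143776945-143776971, minus strand). The second Sox5 probe (chr6:143781520-143781579, minus strand) held 0 GGA triplets and 66.7% purines. The Comp probe spanned 134 genomic bases (chr8:72905692-72905825, plus strand), 74 more than its length, so that it matches the genome with a gap. The Matn4 probes lay at chr2:164218579-164218638 and chr2:164215177-164215236, both on the minus strand. Matn2 was read at chr15:34365734-34365793 and Hapln1 at chr13:89751096-89751155, both on the plus strand.

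Between 72.1% and 81.6% of gene spots were well above background in the 4 RNAs, with a median signal of 12.1 to 17.0 times the local background; the number of arrays limits the precision. Signals of 8 of 8 urothelium markers (Upk1a, Upk1b and Upk2 the first of them) and of 8 of 8 smooth muscle markers were high enough to be tested. So were those of 8 of 10 kidney markers and 6 of 8 chondrocyte markers, so being tested does not tell the tissue. The targeted genes were called higher under the cDKO label: Tbx2 stood at log2 ratios of 1.04 and 0.44 on the male and the female array (adjusted p = 0.0273, limma), and Tbx3 at 0.78 and 0.55 (adjusted p = 0.0305). Tbx18, which carries the Cre, was called higher too, at 0.81 on both arrays (adjusted p = 0.00778). The labels do not say which exons are lost, so these probes do not check the genotype, and directions are those of the RNA labelled cDKO. In the female array the Y-linked Ddx3y and Eif2s3y had processed signals of 359.6 and 491.2 in the RNA labelled cDKO, against 2851 and 5159 in the male cDKO RNA, and were not well above background in the female control RNA. The RNA labelled female cDKO thus goes against its label in part, so both arrays' values are given for the set and for any gene named with opposite directions on them.

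Of the 12 probes, 10 were well above background in all 4 RNAs. Below, processed signals are the scanner software's background-subtracted, dye-normalised intensities, and log2 ratios are of labelled cDKO over control after loess, so the ratio need not equal the quotient of the signals. Signals of different probes are not comparable with each other.

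**Figure D1:**
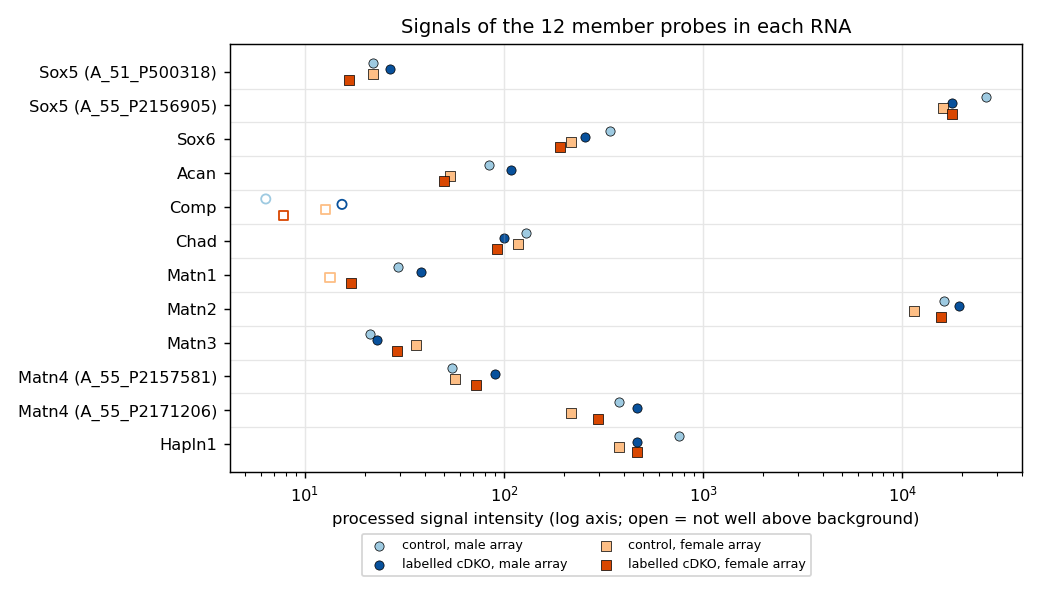
Processed signal intensity (log axis) of the 12 probes of the 10 genes in each of the 4 RNAs; circles are the male array, squares the female array, dark symbols the RNA labelled cDKO, and open symbols spots not well above background. Comp was not well above background in any RNA, and the control and cDKO symbols of most other probes lie close together on either array.

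Among the 9 genes tested, 4 had a mean ratio above 0 and 5 below, with a median of -0.043 (limma, mean of both arrays against 0). Over all 23414 genes tested the median was 0.0045 and 4.45% were called at an adjusted p under 0.05, 2.18% higher and 2.27% lower; against that background 0 calls among 9 genes is not a result about these genes. At an unadjusted p under 0.05 (limma) there were 2 of the 11 tested probes, 1 of Matn2 and 1 of Matn4. Of all tested probes on the array, 4528 of 29274 were under it. Counted by gene, 1 of the 9 members (Matn2) stood beside 3746 of all 23414 genes. On these counts the members did not stand out from the array as a whole. The mean ratios of the members' probes ran from -0.27 to 0.36. Their 95% intervals lay between -0.67 and 0.71, which is from 1.59-fold lower to 1.64-fold higher. Most of the weight in these intervals is the variance shared by all probes, with 13.9 prior and 1 residual degree of freedom. The median absolute ratio was 0.24 (0.16 with Sox5 taken from its second probe), beside 0.15 over all genes.

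**Figure D2:**
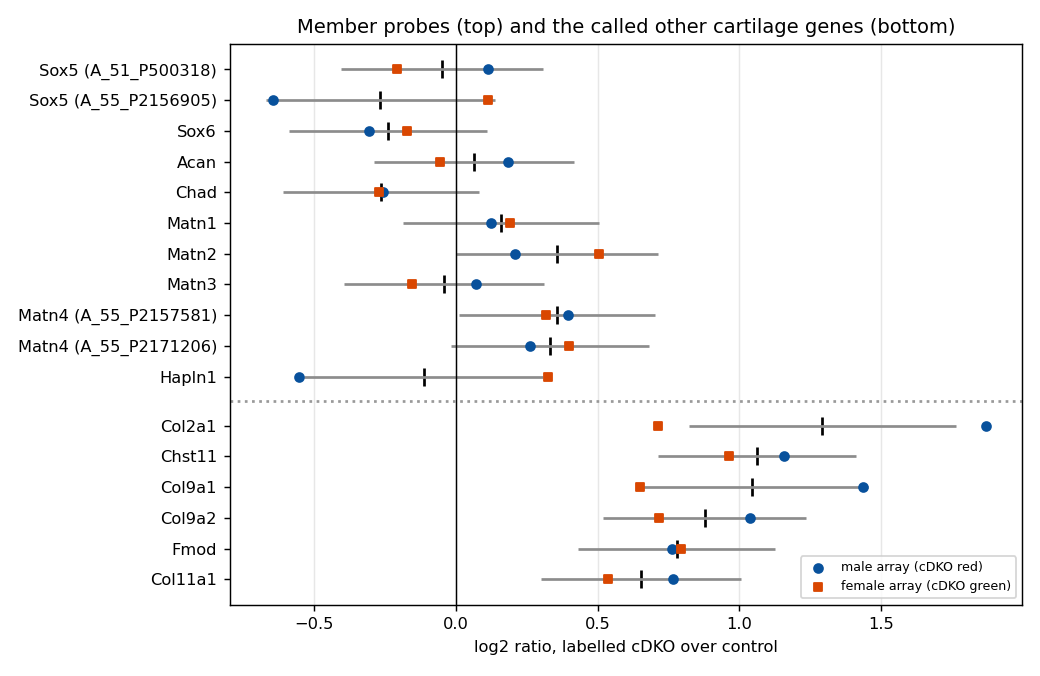
Log2 ratios of labelled cDKO over control on the male (circle) and female (square) array for the 11 tested probes of the set and, below the dotted line, for the 6 other cartilage genes called higher; the tick is the mean and the bar its 95% interval from limma. Bars of Matn2 and 1 Matn4 probe begin just above 0, and those of the 6 genes below the line start at 0.30 or more.

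Sox5 could be read from 1 probe that is not a repeat, and there the arrays pointed opposite ways. At A_51_P500318 the processed signals were 26.8 (cDKO) and 21.9 (control) on the male array and 16.7 and 22.1 on the female array. The groups overlap, and the log2 ratio was 0.11 for the males and -0.21 for the females (mean -0.049 ± 0.23, SD, n = 2; adjusted p = 0.947). The mean spot brightness there was 2.45 to 2.86 times the local background.

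The purine repeat probe of Sox5 gave a different picture from the second probe. Its processed signals were 17796 (cDKO) and 26427 (control) on the male array and 17686 and 16039 on the female array. The log2 ratio was -0.65 for the males and 0.11 for the females (mean -0.27 ± 0.54, SD, n = 2; adjusted p = 0.571). The array holds 23 probes made only of A and G, this one included. Of these, 23 of 23 were well above background in all 4 RNAs (69.8% of all probes). All 23 were lower on the male array, with a median log2 ratio of -0.51, and 17 of them were higher on the female array, whose median was 0.11; 0 were called by limma, and 0 had an unadjusted p under 0.05. They are annotated to genes as different as Cplx2, Gcm1, Vash1 and Pigr. Of all probes tested, 21.0% were lower on the male and higher on the female array. As the brighter probe it stands for Sox5 in the counts over genes, and the values of both Sox5 probes are given throughout.

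**Figure D3:**
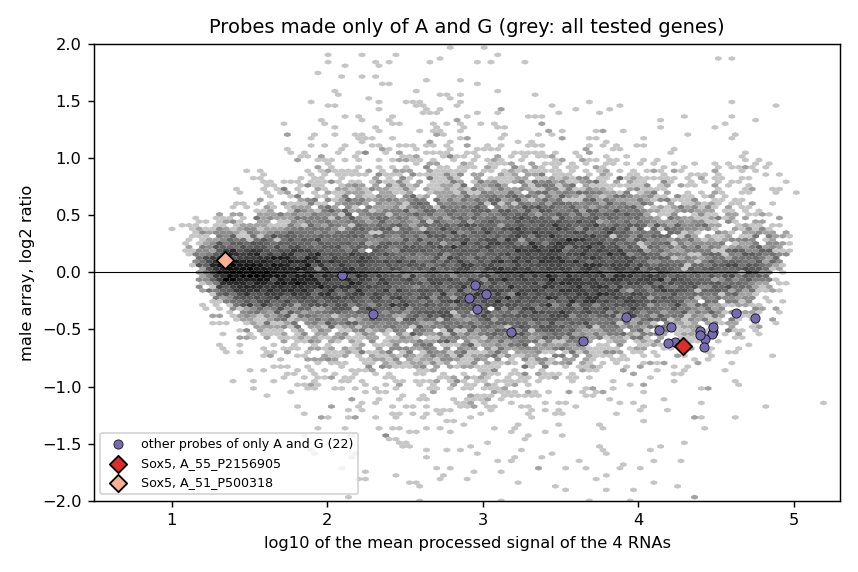
Male-array log2 ratio of labelled cDKO over control against log10 of the mean processed signal, for the 23 probes made only of A and G, the second Sox5 probe and, in grey, all tested genes (102 lie beyond the axes). The Sox5 repeat probe lies at -0.65, below 0 like the other probes of only A and G, and the second Sox5 probe at 0.11.

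Sox6 was lower on both arrays without passing the test. Its processed signals were 254 (cDKO) and 340 (control) on the male array and 191 and 218 on the female array, with the cDKO RNA lower on each array although the male cDKO value lay above the female control value. The log2 ratio was -0.24 ± 0.095 (SD, n = 2; -0.31 for the males and -0.17 for the females; adjusted p = 0.547), with a 95% interval from -0.59 to 0.11. The probe lies at chr7:122615418-122615477 on mm9, minus strand.

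Sox9, the partner of Sox5 and Sox6 in chondrocytes, had processed signals of 893 (cDKO) and 1846 (control) on the male array and 809.0 and 756.5 on the female array. It was at -1.01 for the males and 0.094 for the females (adjusted p = 0.326), so the direction was not shared. With Sox9 included, 0 of 4 tested Sox genes of the SoxD and SoxE classes were called by limma, 1 had an unadjusted p under 0.05, and the median was 0.30. Sox13, the remaining SoxD gene, was at 0.28 ± 0.24 (SD, n = 2) and Sox8 at 0.43 ± 0.028. Sox10, a SoxE factor of Schwann cells, was at 0.63 for the males and -0.0090 for the females.

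Aggrecan did not pass the test, and its arrays pointed opposite ways. Acan had processed signals of 108 (cDKO) and 84.2 (control) on the male array and 49.8 and 53.6 on the female array. The groups overlap, and the mean log2 ratio was 0.062 ± 0.17 (SD, n = 2; 0.18 for the males and -0.058 for the females; adjusted p = 0.931), with a 95% interval from -0.29 to 0.41. The probe is at chr7:86259741-86259801 on mm9, plus strand.

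The link protein Hapln1 had the widest disagreement between arrays in the set. Its processed signals were 464 (cDKO) and 754 (control) on the male array and 467 and 376 on the female array. The cDKO values were almost the same on both arrays, and the control values lay on either side of them. The log2 ratio was -0.55 for the males and 0.32 for the females (mean -0.11 ± 0.62, SD, n = 2; adjusted p = 0.880). For comparison the median SD of all genes was 0.16.

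Link proteins are known to lie beside lecticans in the genome, and both pairs measured here could be set side by side. The Vcan probe that stood for the gene lay 43.9 kb from that of Hapln1 on chromosome 13. Vcan, which encodes versican and is named for this position, was at -0.15 for the males and 0.47 for the females. The Hapln3 probe lay 0.229 kb from that of Acan on chromosome 7 and pointed to the other strand; Hapln3 was at -0.11 ± 0.042 (SD, n = 2) there and at 0.086 at its other probe. In the list of lecticans, link proteins and hyaluronan genes 0 of 5 tested genes were called by limma, 1 had an unadjusted p under 0.05, and the median was 0.16. Among them were Has2, a hyaluronan synthase, at 0.31 ± 0.31 (SD, n = 2) and Cd44, a hyaluronan receptor, at -0.48 ± 0.025. Of the 4 probes of Cd44, 1 was called (-0.65, adjusted p = 0.0483), though not the brightest one that stood for the gene. The other 5 genes of that list failed the filter, and Bcan, Hapln2 and Hapln4 were not well above background in any RNA.

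Comp was not well above background in any of the 4 RNAs and was not tested. Its processed signals were 15.4 (cDKO) and 6.37 (control) on the male array and 7.83 and 12.7 on the female array, so no fold is given.

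Chad was lower by nearly the same amount on both arrays, yet did not pass the test. Its processed signals were 100.02 (cDKO) and 130 (control) on the male array and 92.1 and 118 on the female array, with both cDKO values below both control values. The log2 ratio was -0.27 ± 0.011 (SD, n = 2; adjusted p = 0.483), with a 95% interval from -0.61 to 0.080. The probe is at chr11:94430136-94430195 on mm9, plus strand.

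The matrilins Matn2 and Matn4 had the highest ratios of the set, and neither passed. Matn2, a matrilin of connective tissue and peripheral nerve, had processed signals of 19147 (cDKO) and 16173 (control) on the male array and 15699 and 11458 on the female array. The cDKO RNA was brighter on each array, but the female cDKO value lay below the male control value. The log2 ratio was 0.36 ± 0.21 (SD, n = 2; 0.21 for the males and 0.50 for the females; adjusted p = 0.323).

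Matn4 was read by a pair of probes that gave like ratios. At A_55_P2171206, the brighter, the processed signals were 465 (cDKO) and 377 (control) on the male array and 295 and 218 on the female array; the female cDKO value lay below the male control value, and the log2 ratio was 0.33 ± 0.097 (SD, n = 2; adjusted p = 0.354). At A_55_P2157581 they were 90.1 and 55.1 on the male array and 72.3 and 56.4 on the female array, with both cDKO values above both control values. The log2 ratio of that probe was 0.36 ± 0.055 (SD, n = 2; adjusted p = 0.308). The probes read the same transcript and the same RNAs, so they are not separate support.

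The cartilage-restricted matrilins Matn1 and Matn3 were dim. Matn1 had processed signals of 38.3 (cDKO) and 29.5 (control) on the male array and 17.0 and 13.4 on the female array, the last of them not well above background. Its log2 ratio was 0.16 ± 0.047 (SD, n = 2; adjusted p = 0.746), with the control measured above background on 1 of 2 arrays (probe at chr4:130511217-130511276, plus strand). Matn3 had 23.1 and 21.3 on the male array and 28.9 and 36.2 on the female array, and was at 0.072 for the males and -0.16 for the females (adjusted p = 0.954; probe at chr12:8977503-8977562, plus strand).

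**Figure D4:**
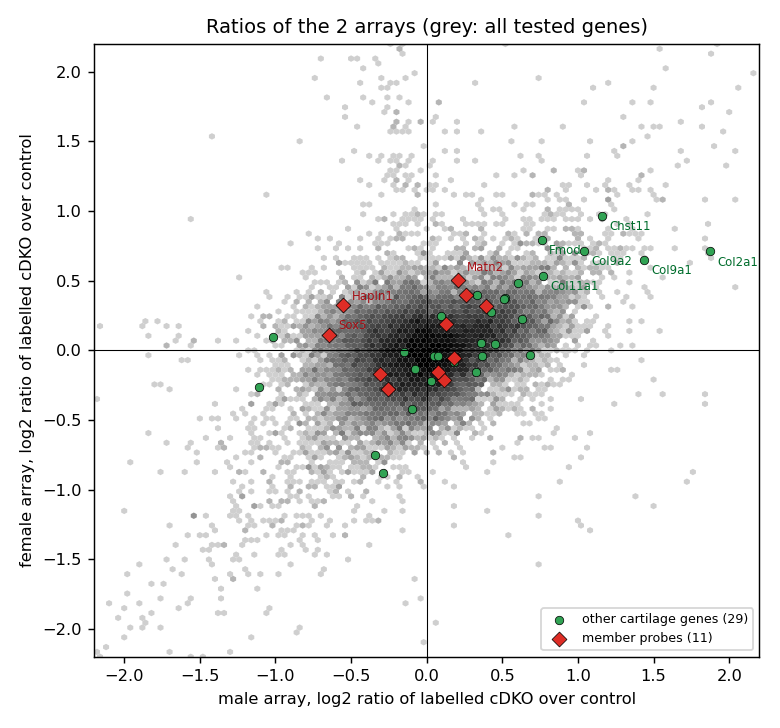
Log2 ratio of labelled cDKO over control on the female array against the male array, for the 11 tested probes of the set (diamonds), 29 other cartilage genes (circles) and all tested genes (grey, darker where more genes lie; 138 genes lie beyond the axes). Hapln1 and the Sox5 repeat probe lie at the upper left, where the arrays disagree, and the 6 called cartilage genes lie at the upper right.

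Across the set, 5 of the 9 genes had the same direction on both arrays (59.7% of all genes did), namely Sox6, Chad, Matn1, Matn2 and Matn4. With the dyes exchanged, opposite directions mean by construction that 1 dye was brighter on both arrays: green for Hapln1 and the Sox5 repeat probe, red for Acan, Matn3 and the second Sox5 probe. Dye and sex cannot be told apart here.

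Other cartilage genes, in a list that leaves out all 10, were called higher in part. Of 29 tested genes 6 were higher (20.7%, beside 2.18% of all genes), 0 were lower and 23 did not pass, and the median was 0.21 (0.36 for the males and 0.054 for the females). The list was chosen with earlier results of these data known, so its share beside that of all genes is not a test. At an unadjusted p under 0.05 (limma) 12 were higher and 3 lower. Among them Col9a3 and Col10a1 (higher) were kept only through the cDKO channel, and Susd5 (lower) only through the control channel. With the filter on both channels 22 of the genes were tested, of which 10 were higher and 3 lower at that threshold (limma). Of the 3 probes of Trps1, named after its values were seen, 1 was called lower, though not the brightest one that stood for the gene (-0.69, adjusted p = 0.0657). All 3 had an unadjusted p under 0.05 (limma). Among the 6, Col2a1, the chief fibrillar collagen of cartilage, had processed signals of 1119 (cDKO) and 256 (control) on the male array and 457 and 267 on the female array (log2 ratio 1.87 and 0.71; adjusted p = 0.00222). Chst11, a chondroitin sulfotransferase, rose by 1.06 ± 0.14 (SD, n = 2; adjusted p = 0.000951), with cDKO signals of 428 and 319 against control signals of 157 and 153. Fmod, a collagen-binding proteoglycan also found in tendon, rose by 0.78 ± 0.022 (SD, n = 2; adjusted p = 0.010).

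Collagens IX and XI, which coat and nucleate the type II fibril, made up the rest of the calls. Col9a2 rose by 0.88 ± 0.23 (SD, n = 2; adjusted p = 0.00526) and Col11a1 by 0.65 ± 0.16 (SD, n = 2; adjusted p = 0.0345). Col9a1 rose by 1.04 ± 0.56 (SD, n = 2; adjusted p = 0.00388) at its brightest probe, with processed signals of 10581 (cDKO) and 3842 (control) on the male array and 6846 and 4430 on the female array. Its second, dim probe at chr1:24201545-24201604 stood at 0.053, so the probes of Col9a1 disagree. All 6 calls were lost with the processed signals, although the mean ratios were as large or larger there (Chst11 1.26, Col2a1 1.45, Col9a1 1.04, Col9a2 0.91, Col11a1 0.80, Fmod 0.82), where Col10a1 and Col9a3 were called in their place (named after their values were seen; the female control signal of both was not well above background), and 0 of the 29 genes were called in the deposited value table. Under median centring Col2a1 and Col9a1 alone of the 29 were called. The call of Col9a1 was also lost with the mean of its probes (0.55), that of Col2a1 with robust eBayes, and that of Col11a1 without the filter and with an intensity trend.

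Known binding partners of Comp and the matrilins were also higher in part. In that list of thrombospondins, collagen IX chains and matrix partners 4 of 10 genes were higher (2.18% of all genes were) and 0 lower, with a median of 0.46. This list too was chosen with earlier results of these data known. Col9a1 and Col9a2 were already counted among the cartilage genes, so they are not separate support. The other called genes were Fn1, fibronectin, at 1.11 ± 0.37 (SD, n = 2; adjusted p = 0.00121), and Dcn, decorin, at 0.84 ± 0.068 (adjusted p = 0.00597). Dcn is also among the adventitial fibroblast markers. Fn1 and Dcn lost their calls with the processed signals, under median centring and in the deposited value table, with mean ratios there of 1.11 to 1.15 for Fn1 and 0.78 to 0.93 for Dcn. The thrombospondins Thbs1, Thbs2, Thbs3 and Thbs4, relatives of Comp, were not called. Outside the naming rule, the mean ratios of Thbs1, Thbs2 and Thbs3 were 0.26, 0.55 and 0.080, and Thbs4 was at 0.70 for the males and -0.24 for the females.

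Markers of other cell types moved in the same RNAs, and in bulk RNA fewer cells of a type and less RNA per cell cannot be told apart. Of the 8 chondrocyte markers 6 were tested and 2, Col2a1 and Col9a1, were higher, while Snorc and Ucma, both cartilage genes, were not well above background in any RNA. The summed processed signal of the list was 12845 (cDKO) and 6102 (control) on the male array and 8242 and 5561 on the female array. Col9a1 made up most of it: without that gene, a choice made after seeing the data, the sums were 2264 and 2260 on the male array and 1396 and 1131 on the female array. Adventitial fibroblast markers were higher in 6 of 8 genes, and their sum was 1.99 times the control on both arrays, with Col1a1, Col1a2 and Col3a1 among the called. Kidney markers were higher in 5 of 8 tested genes, with a sum 2.46 times the control on the male and 1.07 times on the female array (3.32 and 1.40 times without Cited1, its brightest gene). Of the 8, 8 were above 0 for the males and 5, the called ones, for the females. Among the called, Lhx1 was not well above background in the female control RNA. It was kept only through the cDKO channel, where it was high. Six2 was at 2.02 and 1.71 and Pax8 at 2.03 and 1.09, both called, and Pax2 was at 0.25 for the males and -0.18 for the females.

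Tendon markers, which bear on Comp, Chad and Fmod, had sums of 1.06 and 0.983 times the control on the male and the female array (1.53 and 1.17 without Kera, the brightest), with 1 of 6 genes higher (Fmod) and 1 lower (Tnmd, at -0.78). Scx and Mkx of that list were not called. Schwann cell markers, which include Sox10 and bear on Matn2, had sums of 1.25 and 1.15 times the control, with 1 of 7 tested genes higher. That gene, Fabp7, was also the brightest, and without it the sums were 1.06 and 1.02 times the control. Smooth muscle markers were lower in 7 of 8 genes, with sums of 0.194 and 0.197 times the control, and Acta2, Myh11 and Tagln were at -2.65, -2.64 and -2.75. Of the skeletal muscle markers 3 of 6 tested genes were lower and 0 higher, Myod1 was at 0.17 for the males and -0.15 for the females, and Myog and Pax7 were not well above background in any RNA. Urothelium markers had 0 of 8 called by limma (2 at an unadjusted p under 0.05), endothelium markers 2 of 6 higher, with Cdh5 called and Pecam1 and Kdr not, and red blood cell markers 1 of 7 higher, with Hba-a1, Hbb-bh1 and Hbb-y not called. The part of these cell types in the ratios of the cartilage genes was not tested.

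**Figure D5:**
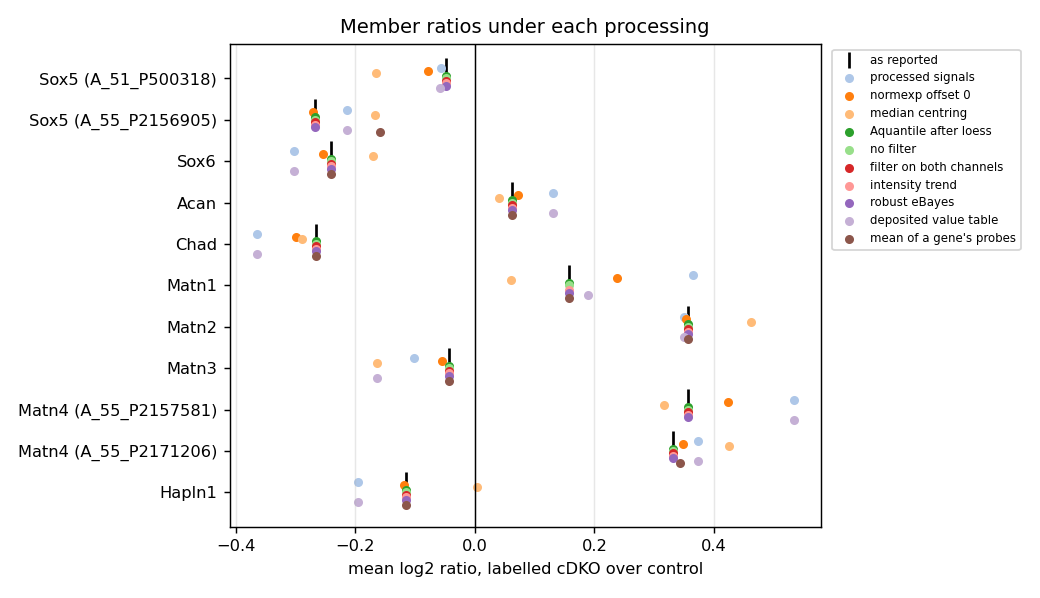
Mean log2 ratio of labelled cDKO over control for the 11 tested probes as reported (tick) and under each of up to 10 other ways of processing (dots). Of these values 1 changed direction, that of Hapln1 under median centring, and Matn2 and Matn4 stayed above 0.30. Aquantile, the filter changes, the intensity trend and robust eBayes kept the reported ratio by construction.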

How the data were processed

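Scans were read by Agilent Feature Extraction 10.7.3.1 (the submitters' processing notes). Its output holds, per the file headers, mean spot and median background intensity, a processed signal intensity (background-subtracted, dye-normalised), a log10 ratio of red over green, and other flags of 0 or 1 for saturated, outlying or well-above-background spots. The deposited series values are a score whose scale is not stated. Its columns have a median of 1, and 11933 and 11692 of 44397 values on the male and the female array are exactly 1. The log2 of the score, with its sign kept, matched the scanner software's ratio within 0.01 log2. This held for 94.4% and 98.9% of gene spots well above background in both channels. For this the software's ratio was turned to cDKO over control, and the deposited score was not turned. No scale or centring is otherwise known. Sequence and mm9 positions of probes are from the files.

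Spot means less background (normexp, offset 50) were loess-normalised per array in limma 3.58.1 under R 4.3.3, control and outlier spots at weight 0, and spots of a probe averaged. Probes well above background in the cDKO channel of both arrays, or in the control channel of both, were kept (29274 probes). Symbols came through RefSeq (GRCm38.p6) accessions for 26526 of 39429 probes, otherwise from the file. The brightest kept probe stood for a gene. The mean ratio was tested against 0 with limma, Benjamini-Hochberg over all kept probes. Members and lists were chosen with earlier results of these data known. Named are all members, the called genes of each biology list and its 3 largest mean ratios with 1 direction on both arrays, and the first 3 genes of each marker list; exceptions are marked or named for position, absence or a count. Some items under this rule are not reported here. Alternatives were processed signals, normexp offset 0, median centring, Aquantile, no filter, a filter on both channels, an intensity trend, robust eBayes, the deposited values and the mean of a gene's probes. On simulated data for this comparison with 29274 probes, 95 to 99 of 100 probes changed 2-fold and 100 of 100 changed 4-fold were called, and 5.80% to 24.6% of calls were false. The simulated noise was independent between probes, with variances drawn from the fitted model and no dye or sex effect. These rates therefore need not hold for the arrays.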

Additional observations from a re-analysis of the deposited data

Results flagged for a closer look

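At 5 probes of the set the male and the female array pointed opposite ways; with 1 array of each sex and exchanged dyes the difference was not tested. Hapln1 was at -0.55 for the males and 0.32 for the females. The Sox5 repeat probe was at -0.65 and 0.11, and the second Sox5 probe at 0.11 and -0.21. Acan was at 0.18 and -0.058, and Matn3 at 0.072 and -0.16.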

How the results depend on the processing

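The count of members called was 0 higher and 0 lower under all 10 other settings planned, and with Sox5 taken from its second probe, a choice made after seeing the data. Of the member values 106 kept their direction, and Hapln1 went to 0.0027 under median centring. Aquantile, the filter changes, the intensity trend and robust eBayes left the ratios of the probes unchanged, so no direction could change under them. Aquantile could not change a call either. Over all genes, 134 were higher and 209 lower from processed signals, 163 and 157 by median centring, 936 higher with an intensity trend, and 0 and 0 in the deposited value table, where limma had 1288 higher and 1145 lower at an unadjusted p under 0.05. The higher share is 39.1% with the processed signals and 58.6% with the trend, in place of 49.0%. Of the other cartilage genes 2 were higher from processed signals, 2 by median centring and 0 in the value table (8 at an unadjusted p under 0.05), while 1 was lower with the filter on both channels (Trps1) and 2 with the trend (Trps1 and Susd5). Susd5 was not well above background in either cDKO RNA. It was kept only through the control channel, where it was high. Of the 80 values of the 8 called genes of the biology lists, 0 changed direction, which settings with unchanged ratios could not show. Of the same values 26 lost the call. The calls of Tbx2, Tbx3, Tbx18 and of genes named only as cell type markers were not followed setting by setting. They too were lost in the deposited value table, where 0 genes were called. The cause of these losses was not tested. With 1 array left out a value has no test. No paired analysis was possible because each array's ratio already pairs its cDKO and control RNA, which the test of the mean ratio uses, and a further replicate block has nothing to act on. Low signal over background limits Sox5, Matn1, Matn3 and Comp.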
